A study of Mus musculus with 9 samples.

Results

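The 4T07 line was compared with both of its sister lines, and the genes described here are those that put 4T07 outside both rather than between them. 67NR, 4T07 and 4T1 are mouse triple-negative breast cancer lines derived from a single mammary tumor, and they are ranked by their spread from the mammary gland: 4T1 spreads widely to other organs, 4T07 leaves small lung deposits, and 67NR stays at its site of growth. Each line was grown as an orthotopic tumor: 500000 untreated cells went into the mammary fat pad, and the Ub-GFP Balb/c hosts, all female, express GFP in their own cells. Tumors were taken after 2 to 4 weeks, when they averaged 10 mm across. Cells negative for both GFP and CD45 were then sorted, a gate meant to keep tumor cells while removing those of the host, and their RNA was hybridized to Illumina mouse bead arrays, 3 for each of the 3 lines and 9 in all. The sources used here give neither the mouse nor the slide of a replicate, so p-values measure only the spread between these arrays, which may be technical.

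The 3 4T07 arrays were set against the mean of the 67NR group and the 4T1 group, each group with equal weight, for 10021 genes with a detected probe. A probe counts as detected where its detection p, the share of negative control probes on the array that are brighter, is under 0.05. Because such an average also moves for a gene that differs from 1 line only, a gene is called set apart here when it met 3 conditions together: the contrast with the average had an adjusted p under 0.05, the comparisons with 67NR and with 4T1 each had an adjusted p under 0.05 in the same direction, and all 3 4T07 arrays lay above, or all below, the 6 other arrays. Of the 10021 genes, 1129 were set apart, 723 of them higher and 406 lower in 4T07. Both comparisons use the same 4T07 arrays and are therefore not independent of each other, and the values that chose a gene are given as a description of it. Levels are normalized log2 intensities, on which a difference of 1 is a 2-fold change, and they are compared between arrays but not between genes.

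Tumor cells can differ from their sister lines in what they secrete, in the matrix they lay down and in how they answer interferon. Type I interferon binds a receptor on the cell surface and induces antiviral genes, whose promoters are known for a short repeat, GAAANNGAAA. Twist1 and Snai1 are transcription factors known for driving epithelial cells to a mesenchymal state, and fatty acid desaturases such as Fads1 insert the double bonds that make polyunsaturated fatty acids. In bulk RNA of a sorted population, fewer cells that carry a transcript and less of it per cell cannot be told apart.

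The arrays were of similar depth, with 16025 to 17566 probes detected on each. Epithelial genes set the lines in the order 67NR, 4T07, 4T1: of 33 junction and identity genes with a probe, 7, 13 and 26 were detected on all arrays of the line, so that 67NR, though a mammary carcinoma line, lacked most of them. Of 15 keratins, 3, 5 and 8 were detected. These lists place 4T07 between its sister lines, unlike the genes that follow.

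Across all genes, the contrast of 4T07 with the average of both lines was past the threshold for 1863 genes in the higher direction (18.6% of the genes tested) and 1846 in the lower (18.4%). Most of these differed from 1 line: 2304 passed the test against 1 sister line but not the other, and in 775 (20.9% of the 3709 called) the 4T07 mean lay between the other means. Both comparisons passed in the same direction for 748 genes higher (7.46%) and 434 lower (4.33%) in 4T07. All 3 4T07 arrays lay above the 6 others in 1033 genes (10.3%) and below them in 798 (7.96%). Without 4T07 replicate 3, when fewer arrays had to lie apart, the count below was 1234. All conditions together left the 723 higher (7.21%) and 406 lower (4.05%) genes. At the edge of this range rule, Ncbp1 and Palld met it by 0.00055 on the log2 scale without being set apart by the tests, whereas the lowest 4T07 value of Cct6a equaled its nearest neighbor from another line.

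Among the 6536 genes that differed between any 2 lines, the 4T07 mean lay between the other means in 3060 (46.8%), the 4T1 mean in 2336 and the 67NR mean in 1140. Counted by the same rule of both comparisons, 4T07 was the line least often apart: 3163 genes (31.6%) put 67NR apart from both sisters, 1637 (16.3%) did so for 4T1 and 1182 (11.8%) for 4T07. Whole-array correlations had the same order, with 0.930 to 0.942 between 4T07 and 4T1 arrays, 0.857 to 0.865 between 4T07 and 67NR, 0.835 to 0.846 between 4T1 and 67NR, and 0.983 or higher within a line.

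For a gene set apart, the smaller of its differences from the sister lines was taken as its size. The median size was 0.77 for the higher genes, of which 242 reached 1 and 37 reached 3, and 0.67 for the lower genes, of which 100 reached 1 and 11 reached 3. The 4T1 mean was the nearer one in 453 of the 723 higher and 261 of the 406 lower genes. In 334 of the higher and 148 of the lower genes, 67NR and 4T1 also differed from each other past the threshold.

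**Figure D1:**
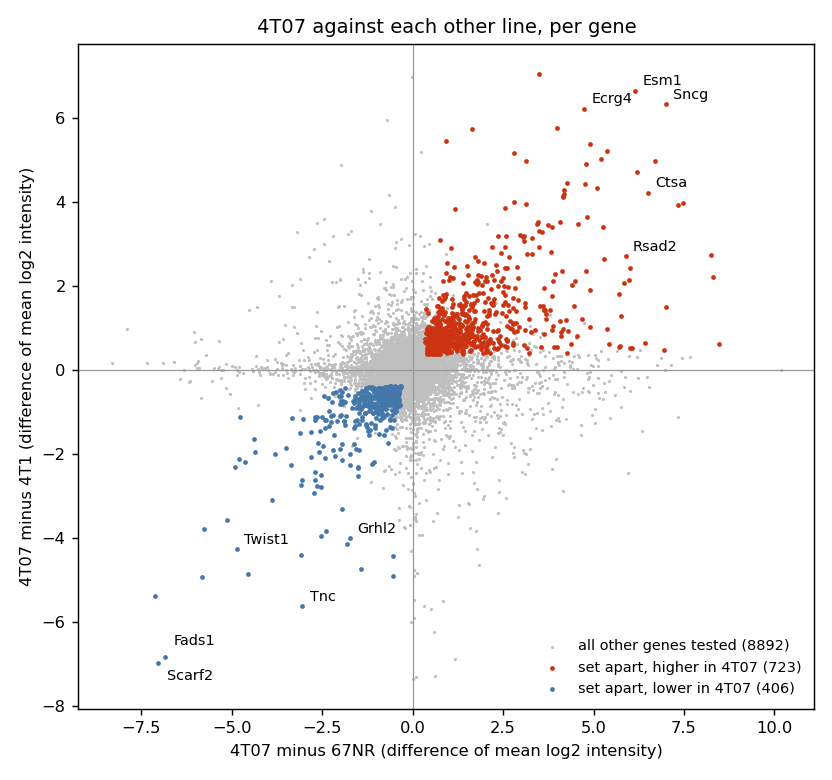
Each point is 1 of the 10021 genes, placed by its mean log2 difference of 4T07 from 67NR (x axis) and from 4T1 (y axis); the 723 genes set apart as higher are red and the 406 set apart as lower are blue. Sncg and Esm1 lie far out in the upper right corner, and Scarf2 and Fads1, both near -7 on each axis, in the lower left.

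Among the higher genes the largest size was that of Sncg, which encodes gamma-synuclein, a small synaptic protein of the synuclein family, on chromosome 14. Sncg read 11.87, 11.61 and 11.66 on the 4T07 arrays, 4.90, 4.71 and 4.55 in 67NR and 5.21, 5.54 and 5.43 in 4T1. The 4T07 arrays stood together more than 6 units above every other array. The differences were 6.99 and 6.32 (SE 0.15 each, larger adjusted p = 1.38e-10 by limma). Sncg was detected on no 67NR array, which makes that difference a bound of at least 94.8-fold. Its second probe differed by 4.28 and 4.15.

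Esm1 encodes endocan, a secreted proteoglycan best known from endothelial cells. It read 11.10, 11.20 and 11.27 in 4T07, 5.06, 5.10 and 4.97 in 67NR and 4.62, 4.50 and 4.53 in 4T1, and it was detected on the 4T07 arrays alone. The level was at least 66.0-fold higher than in 67NR and at least 70.3-fold higher than in 4T1 (larger adjusted p = 4.73e-11 by limma). Of the 16 endothelial markers, Flt1, Eng, Esam, Egfl7 and Robo4 were detected on all 3 4T07 arrays, 6 on none of them, and Vwf, Cldn5, Sox17 and Sox18 on no array of any line. Flt1, a VEGF receptor gene, had a mean of 8.27 in 4T07, 6.67 in 67NR and 9.12 in 4T1, and Egfl7, of a factor that vessels secrete, 8.03, 5.28 and 7.88. The summed level of the list was 921 to 1170 on the 4T07 arrays, between 626 to 727 in 67NR and 1585 to 2007 in 4T1. The part of endothelial cells in the Esm1 level was not tested.

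Esm1 had the largest difference of the genes detected in 4T07 alone, and Scarf2, described next, the largest of those detected on all arrays but the 4T07 ones. Their promoters are shown side by side because they differ in CpG content. Each is 300 bases of GRCm38.p6 from the RefSeq promoter table, 250 before the start of transcription and 50 after, with CpG dinucleotides in capitals. Esm1 has 5 CpGs and a GC content of 46.3%, and Scarf2 has 34 CpGs and 74.3%.
Esm1 promoter, chr13:113209409-113209708 (plus strand): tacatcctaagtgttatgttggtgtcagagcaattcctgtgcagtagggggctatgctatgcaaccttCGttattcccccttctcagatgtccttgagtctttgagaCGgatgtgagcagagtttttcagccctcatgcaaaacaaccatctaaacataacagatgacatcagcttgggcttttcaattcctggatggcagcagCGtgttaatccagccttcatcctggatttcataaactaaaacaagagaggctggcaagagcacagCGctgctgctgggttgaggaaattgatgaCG
Scarf2 promoter, chr16:17797032-17797331 (plus strand): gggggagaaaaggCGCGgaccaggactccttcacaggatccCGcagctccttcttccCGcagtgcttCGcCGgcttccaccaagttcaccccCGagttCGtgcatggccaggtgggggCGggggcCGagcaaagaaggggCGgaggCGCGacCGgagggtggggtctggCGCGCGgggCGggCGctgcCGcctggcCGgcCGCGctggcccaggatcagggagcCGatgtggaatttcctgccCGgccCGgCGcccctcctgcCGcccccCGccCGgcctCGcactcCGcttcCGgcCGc
Between all higher and all lower genes, the difference was smaller. The promoters of the higher genes (586 of 723 with an entry) had a median of 18 CpGs, those of the lower genes (332 of 406) 22, and those of all genes tested (8119 of 10021) 21. Of the 59 genes detected in 4T07 alone, the 43 with an entry (72.9%) had a median of 7 CpGs. Of the 35 detected in both sister lines but not in 4T07, the 25 with an entry (71.4%) had 22. The genes without an entry may differ. DNA methylation was not measured on these arrays.

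Several of the next genes encode secreted proteins and receptors of bone and immune biology. Tnfrsf11b, which encodes osteoprotegerin, the decoy receptor that captures RANKL, read 10.11, 9.76 and 9.38 in 4T07, 4.44 to 4.64 in 67NR and 4.62 to 4.78 in 4T1. It was detected on the 4T07 arrays alone and was at least 24.3-fold higher than in 67NR and at least 25.9-fold higher than in 4T1 (larger adjusted p = 2.44e-09 by limma). The osteocalcin probes of Bglap2 and Bglap were also high in 4T07, with 4.91 and 4.15 as the smaller differences, but these are near-identical gene copies whose signals may be shared, so which copy was transcribed is uncertain. The same holds for Hamp2, a hepcidin gene next to a close copy, at 4.18. Gpnmb, which encodes a glycoprotein of lysosomes and melanosomes, read 11.78 to 12.27 in 4T07, against 4.90 to 6.72 in 67NR and 7.16 to 7.6 in 4T1, and its 3 other probes were also above all 6 other arrays.

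Acod1 encodes the enzyme that makes itaconate in activated macrophages. It read 8.97, 8.85 and 8.82 in 4T07, and 4.37 to 4.93 on the 6 other arrays, none of which detected it. Itgb7, a leukocyte integrin subunit, read 9.13, 9.47 and 10.16 against 4.66 to 5.97. The leukocyte marker list, 15 genes with a probe, was summed beside these: its level was 1300 to 1515 on the 4T07 arrays, below 1779 to 3505 in 67NR and above 890 to 1016 in 4T1. Of these 15 genes, Cd14, Lyz2, S100a8, Laptm5 and Coro1a were detected on all 9 arrays. Cd14, a lipopolysaccharide co-receptor of myeloid cells, had its highest mean in 4T07, at 9.08 against 8.93 in 67NR and 8.08 in 4T1, whereas Lyz2 and S100a8, at 6.27 and 8.25, were higher in 67NR, at 8.84 and 9.26. The complement gene C1qc was detected on 2 arrays of each line, Csf1r on 1 4T07 array, Tyrobp on none of the 4T07 arrays, and Adgre1 and C1qa on no array. The T cell marker Cd3e was detected on 2 of the 3 4T07 arrays and on no other. The part of leukocytes in the Acod1 and Itgb7 levels was not tested.

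Further genes above both sister lines serve metabolism and extracellular signaling. Cyp7b1, an oxysterol hydroxylase, Renbp, an epimerase of amino sugars, and Hsd11b1, which regenerates active glucocorticoid, had smaller differences of 3.41, 4.78 and 3.14. Gli2, the transcription factor that answers Hedgehog signals, was detected in 4T07 alone, at 8.21, 7.69 and 7.98 against 4.40 to 4.55 elsewhere. Ptx3, a secreted pattern recognition protein, and Saa3, an acute phase protein, had smaller differences of 4.11 and 3.13. All of these genes had 4T07 arrays that did not overlap with the others, as did Ecrg4, which encodes a secreted peptide precursor, despite a wide spread of 10.74 to 11.75 in 4T07 and 5.49 to 6.81 in 67NR.

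Other leading genes varied more between the 4T07 arrays. Tmem100, a membrane protein induced by BMP signals in vessels, read 9.70, 9.70 and 8.88 in 4T07 against 4.61 to 4.74 in 67NR and 4.84 to 5.22 in 4T1. C130026I21Rik read 9.24, 9.33 and 10.50 against 4.50 to 4.72 and 5.11 to 5.66, and its second probe differed by 4.47 and 3.85. Tnfsf13b, which encodes BAFF, the survival factor of B cells, read 9.89, 9.45 and 10.25 against 4.86 to 5.19 in 67NR and 5.86 to 6.92 in 4T1. In all of these the lowest 4T07 array stayed above the highest array of either sister line.

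Not every probe of a leading gene showed the same difference. Prune2 led with 5.36 and 5.22 by its brightest probe, but a second probe differed by 0.92 and 1.01. The second probes of Ctsa (-0.11 against 67NR and 0.55 against 4T1) and of Scara5 (-0.19 and 0.17) did not show the differences of the brightest probes. Among all higher genes with another kept probe, 379 of 438 such probes had the same direction in both comparisons and 261 (59.6%) lay above all 6 other arrays; among the lower genes these counts were 215 and 119 (47.6%) of 250.

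The gene with the largest loss was Scarf2, a scavenger receptor family member on chromosome 16. Scarf2 read 4.93, 4.60 and 4.38 in 4T07, 11.34, 11.75 and 11.92 in 67NR and 11.40, 11.70 and 11.75 in 4T1. No 4T07 array detected it, whereas the mean of 4T1 minus that of 67NR was -0.05. It was at least 95.9-fold lower than in 67NR and at least 92.4-fold lower than in 4T1 (larger adjusted p = 3.81e-10 by limma).

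Fads1, the delta-5 desaturase that makes arachidonic and eicosapentaenoic acid, showed almost the same picture, at 4.62, 4.76 and 4.97 in 4T07, 11.65, 11.70 and 11.56 in 67NR and 11.90, 11.55 and 11.41 in 4T1. The 4T07 level was under the detection limit on all arrays and at least 93.4-fold and 92.4-fold lower (larger adjusted p = 1.28e-10 by limma). This rests on the transcript as read by 1 probe, with no second probe of Fads1 to set beside it, in sorted tumor cells; protein and cultured cells were not measured here. Its neighbor Fads2, the delta-6 desaturase of the same cluster on chromosome 19, read 5.86 to 5.93 in 4T07, 6.30 to 6.53 in 67NR and 5.63 to 6.58 in 4T1, and its contrast of -0.41 was not past the threshold (adjusted p = 0.0972 by limma).

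The other genes with the largest losses included membrane, adhesion and signaling proteins. Tmem185b, a membrane protein, was at least 106-fold and 31.3-fold lower, and Mpp1, a membrane scaffold of the guanylate kinase family, at least 17.9-fold and 22.3-fold lower than in 67NR and 4T1. Nectin3, an adhesion molecule of adherens junctions, read 4.36 to 4.60 in 4T07 against 10.17 to 10.47 in 67NR and 9.24 to 9.64 in 4T1, and a second probe, detected on 1 4T07 array, differed by -3.30 and -2.24. Gab1, the docking adaptor of growth factor receptors, stayed detected at 5.90, 6.29 and 5.58 but was 14.7-fold and 8.60-fold lower. Fam167a had the widest spread among these, with 4.95, 6.24 and 7.66 on the 4T07 arrays, all of them still below the lowest 67NR array at 9.19. Ass1, which makes argininosuccinate for arginine synthesis, was 5.83-fold and 15.5-fold lower, although 1 of its 4T07 arrays read 6.18 and the others 4.52 and 4.71.

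Fam111a, whose protease acts at DNA replication forks and restricts viruses, read 4.46, 4.63 and 4.59 in 4T07, where it was not detected, 10.25, 10.17 and 10.59 in 67NR and 8.60, 7.93 and 8.50 in 4T1. Lrig3, a membrane protein with leucine-rich repeats, read 4.76, 4.95 and 4.60 against 9.59 to 10.22 and 8.17 to 8.48, but its second probe differed by -0.41 and -0.65 and overlapped the other arrays. Exo5, an exonuclease, was at least 5.17-fold and 5.90-fold lower and Enox2, a cell surface oxidase, at least 5.05-fold and 3.94-fold lower. Ly6c1, a surface antigen, was the last of the 15 and the least extreme, at 7.22, 6.85 and 7.67 against 9.66 to 10.33 in 67NR and 9.82 to 9.91 in 4T1.

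**Figure D2:**
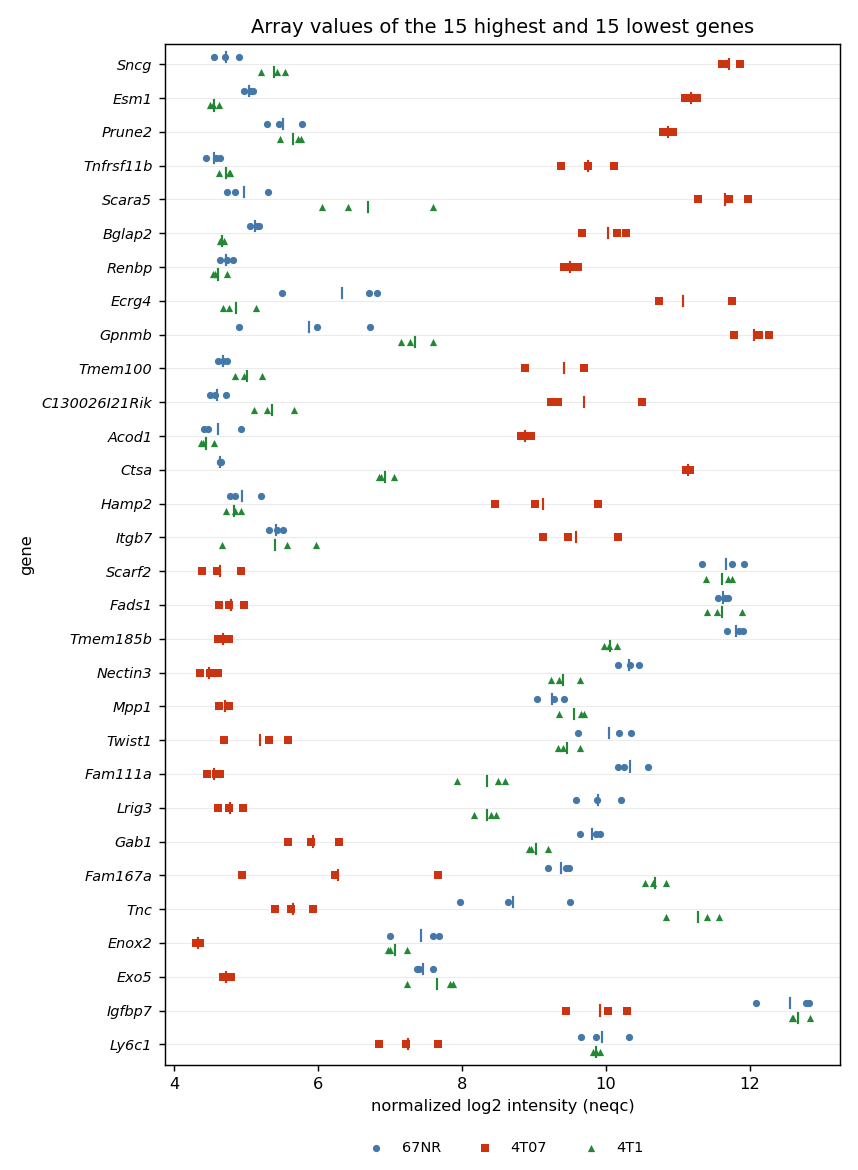
Normalized log2 intensity (x axis) of the 15 genes highest and the 15 lowest in 4T07, with a symbol for each array and a vertical line at the mean of each line (3 arrays each; blue circles 67NR, red squares 4T07, green triangles 4T1). The red squares of Sncg lie between 11.61 and 11.87 and those of Scarf2 between 4.38 and 4.93, apart from all other symbols of their rows.

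By detection alone, 35 genes were detected on all 6 other arrays and no 4T07 array, and 59 on all 4T07 arrays and no other. These were fewer than for the other lines: 355 genes were missing from 67NR alone and 63 from 4T1 alone, and 201 and 109 were detected only there. Of the 35 lost genes, 30 were set apart, among them Adm, the vasodilator peptide adrenomedullin, at least 7.76-fold and 3.62-fold lower, and Slit2, a repulsive guidance ligand, at least 3.65-fold and 2.33-fold lower. The 59 genes gained included Ifnb1, which encodes interferon beta, at 5.41, 6.38 and 5.99 in 4T07 against 4.38 to 4.74 elsewhere. The lowest detected signals on the 4T07 arrays were 5.06 to 5.13, so Ifnb1 was near that limit on replicate 1. Also gained was Aim2, the sensor of cytosolic DNA, at 7.06, 7.06 and 7.04 against 4.40 to 4.80. Of these 59 genes, 56 were set apart.

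Among other genes detected only in 4T07, F5, coagulation factor V, read 7.70, 6.84 and 6.68 against 4.48 to 4.92 elsewhere, Itih2, which binds hyaluronan, read 6.52, 6.22 and 7.15 against 4.40 to 4.84, and Hpse, the heparanase that cleaves heparan sulfate, read 6.32, 6.64 and 6.6 against 4.44 to 4.80. Others were only just detected: the receptor tyrosine kinase gene Mertk read 5.24 to 5.78 and the oxysterol receptor gene Nr1h3 5.28 to 5.57, where the lower bounds of the difference were 1.31-fold and 1.24-fold over 67NR. Among the lost genes the margins were also unequal. Pik3r3, a regulatory subunit of PI3 kinase, was at least 6.46-fold and 2.57-fold lower and Syne1, a nuclear envelope spectrin, at least 2.57-fold and 1.74-fold lower. By contrast Acacb, Cyp11a1 and Grb10 were detected on all 6 other arrays and no 4T07 array but did not pass both comparisons (larger adjusted p = 0.0617, 0.109 and 0.287 by limma).

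Interferon-stimulated genes were the list in which 4T07 most often stood above both sister lines. Of 35 measured members, 16 passed both comparisons in the higher direction and 0 in the lower, where 7.46% and 4.33% of all genes did so, and the median contrast was 1.28 against -0.03 over all genes. The 4T07 mean was the highest in 31 of the 35 and the 67NR mean the lowest in 32, so that most of these genes were ordered 67NR, 4T1, 4T07. Over all 10021 genes, the 4T07 mean was the highest in 2768. In 13 of the 16 genes, 4T1 was also above 67NR past the threshold. Averaged over the list, the arrays read 9.32, 9.21 and 9.30 for 4T07, 8.63, 8.50 and 8.24 for 4T1 and 7.47, 7.10 and 7.02 for 67NR, without overlap between lines. The summed leukocyte markers were 1779 to 3505 in 67NR, 1300 to 1515 in 4T07 and 890 to 1016 in 4T1. The part of leukocytes in the levels of the interferon-stimulated genes was not tested.

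The largest of these differences was that of Rsad2, which encodes viperin, an antiviral enzyme. Rsad2 read 10.62, 10.42 and 10.36 in 4T07, 8.30, 7.63 and 7.33 in 4T1 and 4.61, 4.69 and 4.43 in 67NR, where it was not detected. It was 2.71 above 4T1 and at least 40.0-fold above 67NR (larger adjusted p = 3.22e-06 by limma). Ifit3, an antiviral gene of the IFIT family, read 11.55, 11.15 and 10.84 in 4T07, 8.66, 8.0 and 8.26 in 67NR and 9.15, 8.36 and 8.65 in 4T1. In Ifit3 the sister lines differed by 0.41, which was not past the threshold (adjusted p = 0.189 by limma), whereas in Rsad2 they differed by 3.18.

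The genes above both lines had several roles. Among the sensors, Oasl1, Oas2 and Oas3, of the family that answers double-stranded RNA, had smaller differences of 2.11, 1.78 and 0.63, and the signals of Oas1a and Oas1g may be shared between copies of that gene cluster. The transcription factors Irf7, Irf9 and Stat2 had smaller differences of 1.52, 0.68 and 0.72, each of them from 4T1. Isg15, the ubiquitin-like modifier, read 11.06, 11.14 and 10.89 in 4T07 against 7.85 to 8.67 in 67NR and 9.04 to 9.77 in 4T1, and Usp18, the protease that removes it, read 11.31 to 11.57 against 7.5 to 8.37 and 9.96 to 10.15. Genes of the guanylate-binding family were mixed. Gbp3 was 1.04 above 4T1, whereas Gbp7 and Gbp2, at 0.21 and 0.55 above 4T1, did not pass that comparison. Gbp5, which was not on the list, was set apart as higher with a smaller difference of 1.58. Within 67NR, replicate 1 was the highest of its line for 21 of the 35 genes, and 21 genes passed both comparisons without it. Over the 20 alternatives the count lay between 10, with a smaller difference of at least 1 required, and 21.

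The promoters of Rsad2, Ifit3 and Isg15 are printed because they carry the repeat GAAANNGAAA, or TTTCNNTTTC where it lies on the other strand, which is in capitals. Each is 300 bases of GRCm38.p6 from RefSeq, and the matches of Isg15 overlap each other.
Rsad2 promoter, chr12:26456403-26456702 (minus strand): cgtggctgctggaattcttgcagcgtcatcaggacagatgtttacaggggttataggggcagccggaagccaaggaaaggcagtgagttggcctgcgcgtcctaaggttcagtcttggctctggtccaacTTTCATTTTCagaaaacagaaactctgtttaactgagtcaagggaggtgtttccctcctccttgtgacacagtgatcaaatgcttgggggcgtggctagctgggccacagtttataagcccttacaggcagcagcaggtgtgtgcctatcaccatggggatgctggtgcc
Ifit3 promoter, chr19:34583279-34583578 (plus strand): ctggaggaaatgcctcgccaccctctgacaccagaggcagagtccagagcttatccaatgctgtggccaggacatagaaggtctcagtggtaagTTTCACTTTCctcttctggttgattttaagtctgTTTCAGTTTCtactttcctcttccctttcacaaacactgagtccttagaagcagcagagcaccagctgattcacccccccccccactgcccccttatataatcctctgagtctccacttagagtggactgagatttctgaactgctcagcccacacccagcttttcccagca
Isg15 promoter, chr4:156200769-156201068 (minus strand): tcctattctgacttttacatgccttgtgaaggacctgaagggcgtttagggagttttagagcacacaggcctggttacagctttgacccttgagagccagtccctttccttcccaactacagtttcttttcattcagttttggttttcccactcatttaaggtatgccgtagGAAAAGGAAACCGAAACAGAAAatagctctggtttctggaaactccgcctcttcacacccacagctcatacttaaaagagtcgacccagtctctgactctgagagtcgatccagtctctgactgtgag
Searched on both strands, the repeat was found once in Rsad2, 2 times in Ifit3 and 3 times in Isg15. A gene was counted when any of its listed promoters had a match, whereas the CpG counts used the first listed promoter. The repeat was present in 40 of 586 higher genes (6.83%) and in 13 of 332 lower genes (3.92%). Of all genes tested, 310 of 8119 had it (3.82%), beside 1079 of 27025 genes in the whole promoter table (3.99%). Of the higher genes outside the interferon list, 32 of 574 had it (5.57%). Among these was Gbp5, of the guanylate-binding family that the list holds in part. The list is thus not complete, and this is not a share of genes without ties to interferon. Of the interferon list, 26 of 35 genes had an entry (74.3%), and 14 of these 26 had the repeat (53.8%). Of its members set apart as higher, 8 of 12 with an entry had it (66.7%). The list genes without an entry were not searched.

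**Figure D3:**
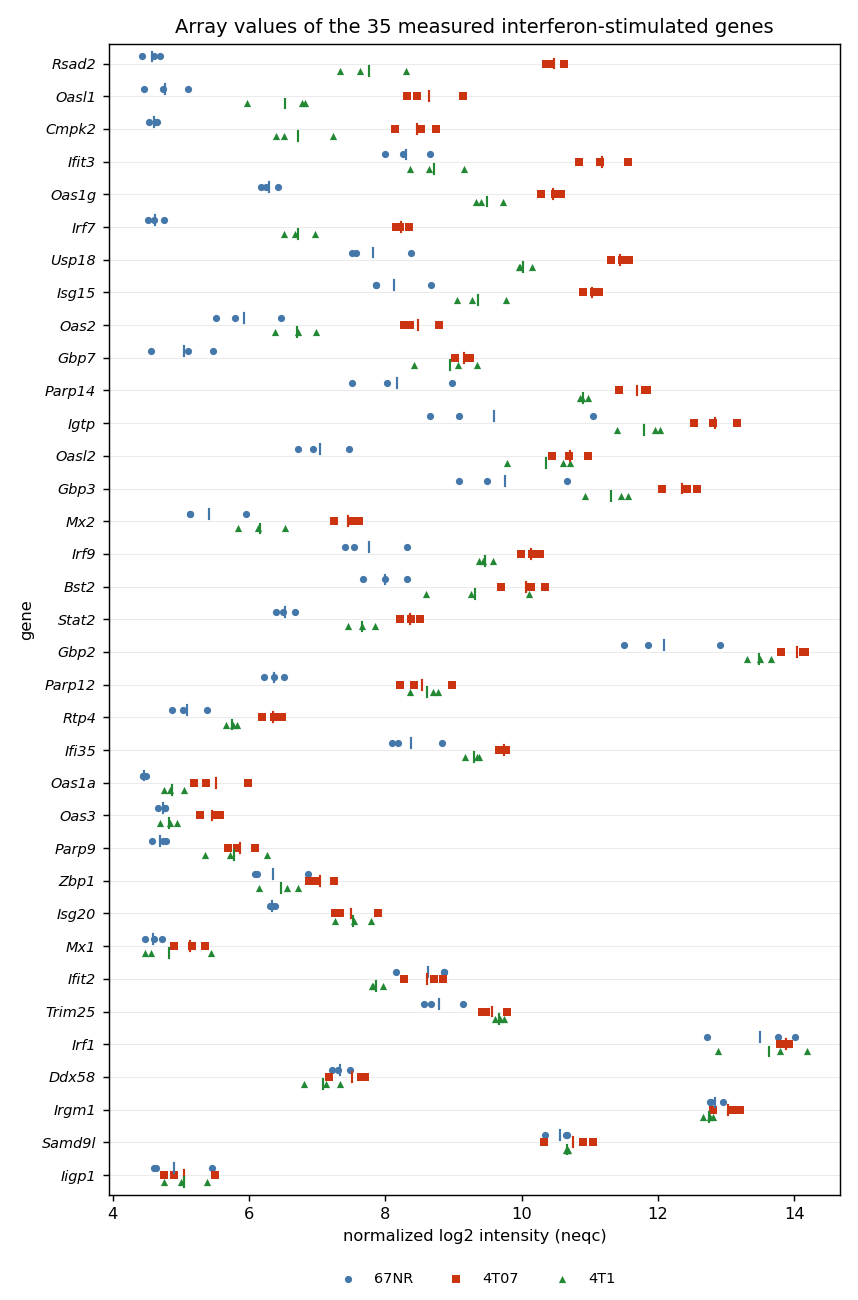
Normalized log2 intensity (x axis) of the 35 measured interferon-stimulated genes, with a symbol for each of the 9 arrays and a vertical line at the mean of each line (blue circles 67NR, red squares 4T07, green triangles 4T1). The 4T07 mean is the highest in 31 of the rows (over all genes, in 2768 of 10021), and the red squares of Rsad2, Ifit3 and Oasl1 are clear of all other symbols.

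Antigen presentation genes mostly set 4T07 apart from 67NR and not from 4T1. All 9 measured MHC class II genes passed the contrast with the average in the higher direction, as 18.6% of all genes did. Their median contrast was 2.50, but their median difference was 4.34 from 67NR and 0.11 from 4T1. H2-DMa, a chaperone of peptide loading, was the member above both lines, at 12.36, 12.32 and 12.32 against 8.05 to 8.35 in 67NR and 11.27 to 11.53 in 4T1. Of 18 genes of MHC class I and antigen processing, 1 was higher by both comparisons (5.56%, against 7.46% of all genes). That gene was H2-T23, by 0.41 over 4T1, a call that was lost without any 1 of the 4T07 or 4T1 arrays.

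Of 36 measured growth factors, receptors and binding proteins, 8 were higher (22.2%, against 7.46% of all genes) and 2 lower (5.56%, against 4.33%) by both comparisons. Fgf7, a fibroblast growth factor that acts on epithelial cells, was detected in 4T07 alone, at 8.23, 7.54 and 7.67, and was at least 6.37-fold above 67NR and 6.78-fold above 4T1. Igf2, the fetal insulin-like growth factor, read 8.22, 7.72 and 7.95 against 5.74 to 6.14 in 67NR and 6.02 to 6.63 in 4T1, 4.02-fold and 3.06-fold higher. The angiopoietin genes Angpt2 and Angpt1, whose products act on the endothelial receptor Tie2, were higher. Angpt2 was 2.04-fold above 67NR and 4.65-fold above 4T1, and Angpt1 6.71-fold and 1.95-fold. Angpt4, of the same family, was not set apart and had a contrast of -1.24. The genes of the binding proteins went opposite ways, with Igfbp6 2.81 above 67NR and 4.00 above 4T1, and Igfbp7 at -2.64 and -2.75. The receptor gene Fgfr1 was lower, with differences of -2.71 and -1.18, whereas Fgfr3 was detected in 4T07 alone.

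Of 22 measured Wnt pathway genes, 4 were higher (18.2%, against 7.46% of all genes) and 0 lower (4.33% of all genes) in 4T07 by both comparisons. These were the ligand genes Wnt6 and Wnt10b, Rspo3, whose product amplifies Wnt signals, and Notum, which encodes a secreted Wnt-inactivating esterase. Notum read 9.89, 10.08 and 8.94 in 4T07, 5.84 to 6.65 in 67NR and 7.93 to 8.46 in 4T1. Wnt6 differed by 3.17 and 2.75, but 1 of its other probes differed by -0.13 and 0.33, and another by 3.06 and 2.85. The TGF-beta and BMP list was near the shares of all genes, with 2 of 27 higher (7.41%), or 1 without 4T07 replicate 1 or 2 or 4T1 replicate 2 or 3, and 1 lower (3.70%). Fst, the activin-binding follistatin, was 2.51 and 2.20 higher, and Tgfbr3, the co-receptor betaglycan, differed by -2.80 from 67NR and -2.08 from 4T1. Of the Notch genes, Hey1 was set apart as higher and Hes1 as lower, both of them targets of the pathway, and the Hes1 call was lost without 4T1 replicate 1.

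Some lipid genes other than Fads1 were also apart. Elovl5 and Elovl6, which elongate polyunsaturated and saturated fatty acids, read 11.86 to 12.24 and 9.77 to 10.04 in 4T07, with smaller differences of 0.87 and 0.86. Of 14 measured genes of cholesterol synthesis and uptake, 4 were higher (28.6%, against 7.46% of all genes) and 0 lower (4.33% of all genes), with a median contrast of 0.46. The smaller difference reached 1 in none of the 4. Sqle, the squalene epoxidase, read 11.60, 11.57 and 11.80 against 10.63 to 11.18 on the other arrays, and Insig1, which holds back cholesterol synthesis, was 0.76 and 0.93 higher, although of its other probes 1 differed by -0.45 and -0.54 and another by 1.15 and 1.30. The remaining members, Cyp51 and Fdps, lost the call without 4T1 replicate 2, which left 2 of the 4 genes, and Cyp51 also lost it without 4T07 replicate 3 or 4T1 replicate 3. In the mammary list, 2 of 6 measured genes were higher (33.3%, against 7.46% of all genes) and 0 lower (4.33% of all genes). Csn3, the milk protein kappa-casein, read 12.51, 12.34 and 12.67 against 9.23 to 9.47 in 67NR and 8.35 to 8.91 in 4T1. Foxa1, a luminal transcription factor, was 2.64 and 1.55 higher.

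Of 13 genes that the study measures or targets and that have a detected probe here, Fads1 was the one set apart. Scd1, the delta-9 desaturase, had 4T07 arrays above all others, at 10.14, 10.08 and 10.22 against 9.43 to 9.79 in 67NR and 8.0 to 8.66 in 4T1, but the comparison with 67NR did not pass (adjusted p = 0.0506 by limma). Slc7a11, the cystine importer, and Acsl4, which activates polyunsaturated fatty acids, passed the contrast at 1.59 and 1.11 through 67NR, since they stood 0.26 and 0.25 from 4T1. Plin2, the lipid droplet coat protein, passed it at -0.68 through 4T1. The contrasts of Gpx4, Acly and Fasn were -0.05, -0.09 and -0.16 and did not pass.

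Of 29 measured collagens and basement membrane genes, 6 were lower (20.7%, against 4.33% of all genes) and 2 higher (6.90%, against 7.46%) by both comparisons, with a median contrast of -0.16. The lower count was 1 by the methods' t-test after adjustment, and 1 with a difference of at least 1. The higher count was 1 without 67NR replicate 1 or 3, 4T07 replicate 1 or 2, or 4T1 replicate 1 or 2. Tnc, the matrix glycoprotein tenascin C, read 5.40, 5.93 and 5.62 in 4T07, 9.50, 8.63 and 7.98 in 67NR and 11.41, 10.84 and 11.58 in 4T1, which is 8.30-fold and 49.3-fold lower, and its 3 other probes were below all other arrays too. The basement membrane pair Col4a1 and Col4a2, which lie head to head on chromosome 8 and form 1 triple helix together, differed by -1.47 and -1.41 from 67NR and by -0.90 and -0.88 from 4T1, whereas Col4a5, another chain of the same collagen type, was 1.41 and 1.77 higher. Among the proteases and inhibitors, Mmp9, a gelatinase, was 5.25-fold and 14.4-fold lower and Timp3, a matrix-bound inhibitor of metalloproteases, 4.08-fold and 4.63-fold higher.

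The mesenchymal regulators were split. Of 15 measured genes, 3 were lower by both comparisons (20%, against 4.33% of all genes) and 2 higher (13.3%, against 7.46%). Twist1, S100a4 and Fn1 were lower and Foxc1 and Snai1 higher, and the median contrast of the list was -0.995. Twist1 read 5.32, 5.58 and 4.69 in 4T07, 10.35, 10.18 and 9.61 in 67NR and 9.41, 9.65 and 9.33 in 4T1, 28.9-fold and 19.2-fold lower (larger adjusted p = 1.79e-07 by limma). Snai1 read 9.83, 10.08 and 9.72 against 8.74 to 9.38 on the other arrays, and its call was lost without 4T07 replicate 1 or 2 or 4T1 replicate 3. The gene of the epithelial transcription factor Grhl2 was also lost in 4T07, at 4.52, 4.46 and 4.43 against 5.95 to 6.61 in 67NR and 8.18 to 8.67 in 4T1. However, Grhl2 was the 1 member of 27 measured epithelial genes that was apart (3.70%, against 4.33% of all genes lower). In 16 of those 27 and in 7 of 9 keratins the 4T07 mean lay between the other means, as in 41.8% of all genes tested.

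Surface and guidance genes moved both ways. Nrp1, a co-receptor of semaphorins and VEGF, differed by -2.49 and -1.80, with all of its 3 probes below the other arrays, and the semaphorin genes Sema3b and Sema4a were higher with smaller differences of 2.20 and 2.12. Among the integrins, Itgb7 and Itgb2, subunits of leukocytes, were higher and Itga1 and Itga7, collagen- and laminin-binding subunits, lower. The fibroblast and pericyte list held Dcn, the matrix proteoglycan decorin, higher in 4T07 at 11.11, 10.18 and 9.95 against 8.75 to 9.70 in 67NR and 8.14 to 8.31 in 4T1. Pdgfrb and Col5a1 were lower, although the list held 0 lower members without any 1 of the 4T07 arrays. The summed level of that list was 5013 to 6508 in 4T07, between 6739 to 8045 in 67NR and 3293 to 4114 in 4T1, and its members Lum, Des, Dpt and Mfap5 were detected on all 67NR arrays and no other.

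Among developmental genes, 2 of 13 measured Hox genes were higher (15.4%, against 7.46% of all genes) and 0 lower (4.33% of all genes). Hoxc6 read 6.44, 6.87 and 6.76 in 4T07, 5.08 to 5.70 in 4T1 and 4.50 to 4.68 in 67NR, where it was not detected, and Hoxa7 read 9.53 to 9.76 against 7.88 to 8.64 on the other arrays. Of 12 measured imprinted genes, 2 were higher (16.7%, against 7.46% of all genes) and 1 lower (8.33%, against 4.33%). Igf2 and Dcn were higher, as given above. Slc22a18, a transporter gene of the imprinted cluster on chromosome 7 that also holds Igf2, was lower at 4.86, 5.31 and 5.50 against 7.5 to 8.67. Genes of that cluster thus stood on opposite sides of both sister lines.

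Single members of other lists also stood apart. Slc1a4, a transporter of serine and other neutral amino acids, read 9.88, 9.90 and 9.90 in 4T07 against 8.14 to 8.64 in 67NR and 9.03 to 9.23 in 4T1. Abhd5, the activator of the triglyceride lipase ATGL, was lower at 8.31, 8.20 and 8.32 against 8.70 to 9.03, a small difference with little spread between replicates. Hacd4, a dehydratase of fatty acid elongation, was 0.90 and 0.81 higher. Of the cytokine list, Ccl25, a chemokine for T cells of thymus and gut, read 5.16, 5.70 and 5.43 against 7.42 to 7.98 in 67NR and 6.42 to 7.15 in 4T1, although 1 of its other probes differed by -0.78 and -0.05. Krt10, a keratin of differentiated epidermis, was the keratin below both lines, with differences of -0.69 and -1.74.

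Other programs gave few members or none. None of 27 measured mitosis genes was apart by both comparisons, as 11.8% of all genes were. The 4T07 mean lay between the others in 19 of them, as in 41.8% of all genes. Among 35 DNA replication genes, 2 were lower (5.71%, near the 4.33% of all genes) and 0 higher (7.46% of all genes). The lower ones were Mcm7 and Cdt1, which license replication origins. None of the 9 leukocyte, 8 endothelial, 4 adipocyte and muscle and 2 erythroid markers measured was apart. In the p53 and cell cycle inhibitor list, 4 of 24 were higher (16.7%, against 7.46% of all genes), among them Ccnd2, a D-type cyclin, and the death receptor Fas. In that list 2 were lower (8.33%, against 4.33%), a count that was 1 without any 1 of the 4T07 arrays or 67NR replicate 2 or 3. Eno2, the neuronal enolase, was higher at 10.46, 10.37 and 10.05 against 8.47 to 9.53 in 4T1 and at least 35.4-fold above 67NR. Of the 28 glutathione and NRF2 genes, Gsto1, a glutathione transferase, differed by -1.52 and -2.31, and Mgst2, a microsomal one, was 3.11 and 1.60 higher.

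**Figure D4:**
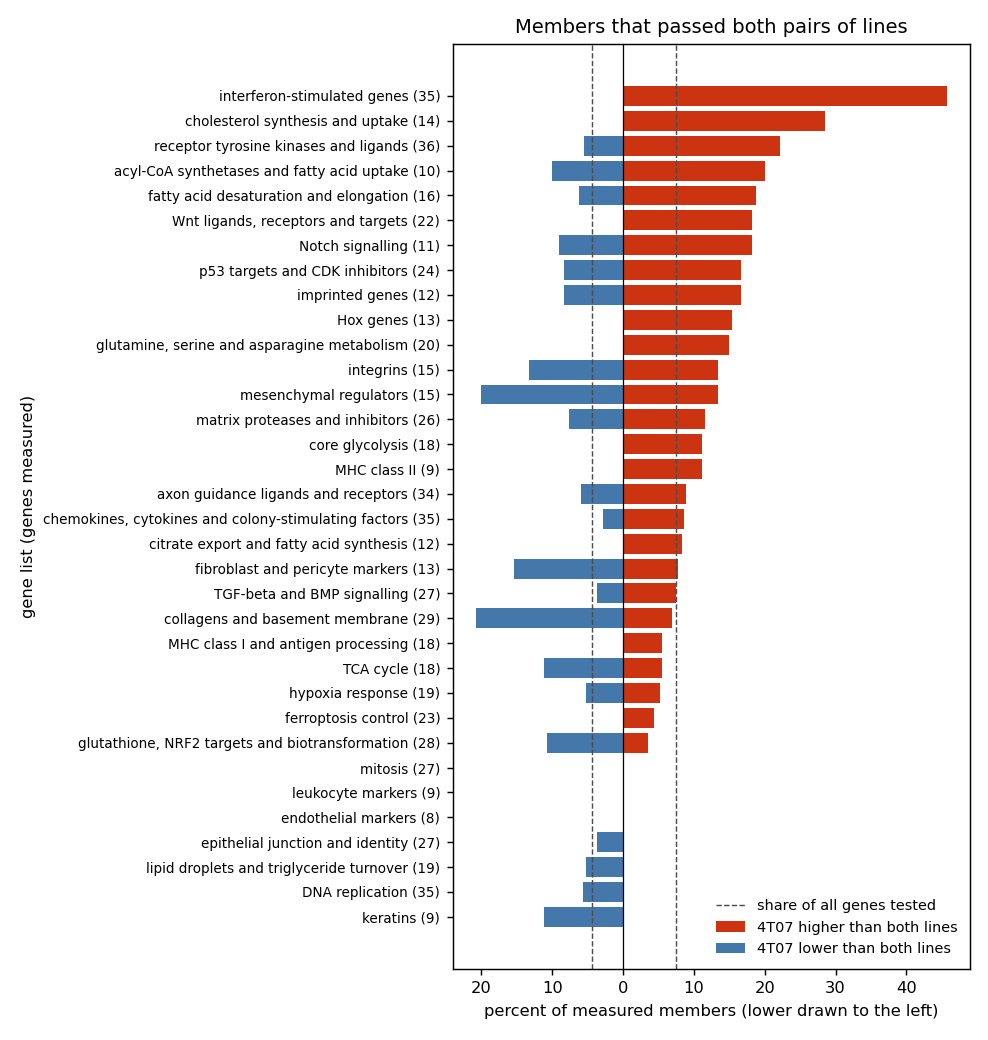
Percent of the measured members of each gene list with at least 8 of them (number measured in parentheses) that passed both comparisons, drawn to the right where 4T07 was higher and to the left where it was lower; the dashed lines mark the shares over all genes, 7.46% higher and 4.33% lower. Interferon-stimulated genes reach furthest to the right with 16 of 35, and collagens and basement membrane furthest to the left with 6 of 29.

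The higher genes were unevenly spread over the genome. By RefSeq positions of GRCm38.p6, 104 of the 290 genes tested on chromosome 2 from 130 Mb to the end were set apart as higher (35.9%) and 4 as lower, whereas nearer the start 29 of 503 (5.77%) were higher. Over all other positions the share was 618 of 9708 (6.37%), so this stretch held 14.4% of the 723 higher genes. The boundary at 130 Mb was set after the counts in 10 Mb bins were seen. Of 184 bins with at least 20 genes, 9 had a share of 25% or more, and 6 of these were on chromosome 2.

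Higher levels in 4T07 were shared by most of the distal genes of chromosome 2. In 206 of the 290 (71.0%), the 4T07 mean was above both other means, as in 27.6% of all genes with a position, and the median difference was 0.47 from 67NR and 0.62 from 4T1. The median deviation of these genes from their 9-array mean was 0.37, 0.43 and 0.33 on the 4T07 arrays, -0.14, -0.10 and -0.11 on the 67NR arrays and -0.25, -0.28 and -0.24 on the 4T1 arrays. All 3 4T07 arrays thus lay apart from the others by a like amount. DNA copy number was not measured.

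The far end of chromosome X, from 130 Mb, showed the same with 28 of 101 genes higher (27.7%) against 9 of 199 before it (4.52%). Chromosomes 6 and 14 held 68 of 491 (13.8%) and 36 of 327 (11%). Of 12 runs of at least 4 neighboring measured genes that were all higher, 8 lay on chromosome 2, and no such run was lower. The longest run, on chromosome 5, held the 7 genes Slc4a2, Fastk, Tmub1, Agap3, Abcf2, Chpf2 and Smarcd3, and a run of 6 on chromosome 6 included Mgp, the matrix Gla protein that limits calcification. Mgp was ordered 67NR, 4T1, 4T07 and read 14.12, 13.92 and 13.46 in 4T07, 11.27 to 11.93 in 4T1 and 5.34 to 5.85 in 67NR.

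Distal chromosome 2 also held genes with large differences. Lbp, the plasma protein that hands over bacterial lipopolysaccharide, read 8.81, 8.31 and 8.99 in 4T07 against 4.66 to 5.41 on the 6 other arrays. Pltp, a lipid transfer protein of lipoproteins, read 8.57, 8.23 and 8.87 against 4.85 to 5.56. Its gene overlaps Ctsa in position, and the 2 form a run with Neurl2 and Pcif1. The protease inhibitor Slpi read 14.77, 14.51 and 14.48 against 10.44 to 10.84 in 67NR and 13.17 to 13.73 in 4T1, and Src, the tyrosine kinase, was 2.08-fold and 2.17-fold higher. Snai1 and the transcription factor gene Cebpb lay in the same run of 5.

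**Figure D5:**
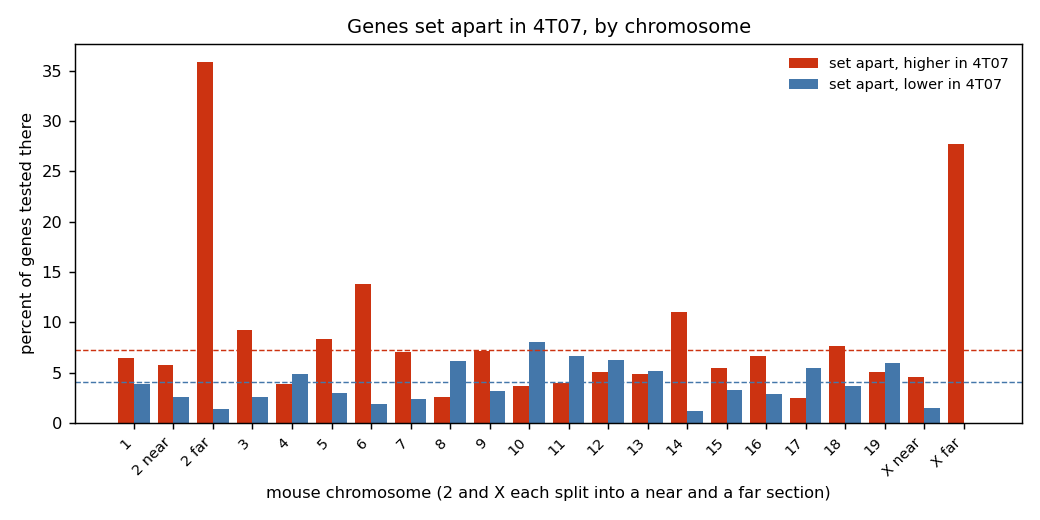
Percent of the genes tested on each mouse chromosome that were set apart as higher (red) or lower (blue) in 4T07, with chromosomes 2 and X split into a near and a far section; the dashed lines mark the shares over all genes. The far section of chromosome 2 stands at 35.9% and that of X at 27.7%, against 7.22% over all genes with a position.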

How the data were processed

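Deposited intensity values of Illumina mouse whole-genome bead arrays, which the authors had not normalized, and the deposited detection p-value of each probe were read for the 9 arrays. The authors' normalized table, deposited as log2 values for 22834 of the 45281 probes with a median of 7.48 in every column, served as an alternative; the sources used here do not say how those probes were chosen. The intensities were background-corrected and quantile-normalized with neqc (limma 3.58.1 in R 4.3.3), which took the negative controls from the detection p-values and added an offset of 16. Probes were named through the platform annotation (19281 with 1 gene, 10 with several, 3543 with none) and kept when detected at p under 0.05 on at least 3 arrays. The brightest of the 15686 kept probes represented each of the 10021 genes. All 9 arrays were fitted together with lmFit and eBayes, and p-values were adjusted by Benjamini-Hochberg over all genes, with a threshold of 0.05. The number of arrays limits the precision. Where no array of a line detected a gene, the bright line was set against the higher of the dim level and the lowest detected signal, which gives a fold as "at least".

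The procedure was tested on simulated data for 10021 genes. Of 100 planted differences of 1 log2, 85 were recovered by the contrast and 71 by all conditions; of 100 of 2 log2, 100 and 99. Of 198 contrast calls 13 were unchanged genes. In this simulation 200 genes were changed in 4T07, and 67NR and 4T1 had the same mean for every gene. Genes that differ from 1 sister line only were therefore absent, so these counts are not error rates of the calls on the real arrays.

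The members and gene lists were chosen with earlier results of these data known. Named were the 15 highest and 15 lowest genes set apart, up to 15 genes detected only in 4T07 or on all arrays but those of 4T07, genes the study measures or targets, and up to 4 members of each list past both comparisons. Other genes, such as Isg15, Irf7, Stat2, Irf9, Usp18, Gbp2, Gbp7, Ifnb1, Aim2, Lbp, Pltp, Slpi, Src, Cebpb, Mgp, Tnfsf13b, Mertk, Nr1h3, Angpt1, Angpt2, Fgfr1, Fgfr3, Fn1, Gbp3, Oas1a, Oas1g, Oas3, F5, Itih2, Hpse, Pik3r3, Syne1, Acacb, Cyp11a1, Grb10, Hsd11b1, Saa3 and Ass1, single cell type markers, the genes of chromosome runs and the 130 Mb boundary were chosen after their values were seen. Positions and promoters came from RefSeq for GRCm38.p6.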

Additional observations from a re-analysis of the deposited data

How the results depend on the processing

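The counts were recomputed with the deposited values, without background correction, with an offset of 50, with median centring, without a filter or with a stricter one, with the mean of all kept probes, with the replicate number as a block, with the methods' t-test, with a minimum difference and without each array in turn; a block for slide or scan was not run because none is given. Of the genes set apart and tested under an alternative, at most 1 higher and 1 lower gene changed direction. For the contrast, the methods' t-test took the 6 other arrays as 1 group, so any difference between the sister lines counted as spread. By this test the contrast gave 1182 higher and 1050 lower genes at an unadjusted threshold and 464 and 280 after Benjamini-Hochberg adjustment. With that adjustment 457 and 222 genes passed both comparisons, 341 and 165 met all conditions, and 60 higher genes lay on distal chromosome 2, a count added after the positions were seen. With a difference of at least 1 these counts were 699 and 450, 249 and 102, 242 and 100, and 24, and 246 genes lay above and 101 below all 6 other arrays. The share of contrast calls that were higher was 50.2%, against 62.4% by the adjusted t-test and 60.8% with the minimum difference. Since the t-test contrast pooled the sister lines, its counts and share differ from those of limma in grouping as well as in test.

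Leaving out 1 array at a time gave 1504 to 1841 higher and 1359 to 1880 lower genes by the contrast, 1076 to 1440 above and 855 to 1234 below all other arrays, 563 to 727 and 295 to 456 by both comparisons, 562 to 726 and 295 to 456 by all conditions, and 86 to 104 on distal chromosome 2. Genes detected on all arrays but those of 4T07 numbered 36 to 52, and on those of 4T07 alone 59 to 71. Same-numbered replicates did not pair: their deviations correlated at -0.17 to 0.15. With the replicate block, 1798 and 1806 genes passed the contrast, 716 and 426 both comparisons, and 684 and 385 all conditions, 673 and 370 of them the same genes. In the gene lists, settings beyond normalization and left-out arrays were added after the counts were seen. By the adjusted t-test and with a difference of at least 1, growth factors and receptors had 7 and 4 higher genes, Wnt genes 2 and 3, cholesterol genes 2 and 0 and the p53 list 2 and 1, and collagens had 1 lower gene by either. Median centring kept 616 and 303 of the genes set apart and the deposited values 677 and 373. Among named genes, the contrast of Acly, -0.09, lay between -0.19 without 4T07 replicate 3 and 0.014 without 4T07 replicate 1, and was past the threshold in none of these. With 3 arrays a line, a single array far from its line cannot be tested.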
